A study of Mus musculus with 9 samples.

Results

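The 6 libraries from MPTP-exposed mice were compared, as 1 pool, with the 3 libraries from saline mice. They were 6 of the 9 libraries of the series. The description centres on the genes for which all 3 saline libraries lay on the same side of, and outside, the range of the 6 exposed libraries, which are called separated genes here. Since PF4-treated mice belong to the exposed pool, a separated gene is one whose difference from saline was present both with and without PF4. Of 17285 genes that passed a filter on low counts, 969 were separated. The tissue was labelled mesencephalon (midbrain), from C57BL/6 mice, with 3 mice in each group, and each library stood for a separate animal per the series design. The MPTP group received MPTP, intraperitoneally, for 7 days. The MPTP+PF4 group received the same toxin together with PF4, given into a vein every 3 days throughout the experiment. The Control group received saline, and no group received PF4 without MPTP, so the comparison cannot be made in mice without the toxin. The labels used here state neither the age nor the sex of the mice.

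MPTP is a lipophilic compound that glial monoamine oxidase B converts into MPP+. The dopamine transporter carries MPP+ into dopaminergic neurons, where it inhibits complex I of the respiratory chain, and the loss of nigral dopaminergic neurons in mice makes MPTP a common model of Parkinson's disease. PF4 (platelet factor 4, CXCL4) is a chemokine stored in platelet granules that binds heparin and heparan sulphate. Because the libraries were made from pieces of whole tissue, fewer cells of a type and less RNA per cell cannot be told apart in any value below.

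The libraries held 32216850 to 36039211 counts, and 16303 to 16889 genes had at least 10 counts in a library. Levels are given as CPM, the count relative to the library total after scaling with TMM factors, and 3 counts corresponded to 0.0832 to 0.0931 CPM before that scaling, for counting error only. Control 2, Control 3 and MPTP+PF4 2 stood apart from the other 6 libraries, including Control 1. Slc6a3, the dopamine transporter, was at 0.0550, 0.958 and 0.122 CPM in the MPTP libraries, 0.338, 102 and 0.402 CPM in the MPTP+PF4 libraries, and 0.393, 574 and 526 CPM in the Control libraries. The striatal genes Drd1 and Adora2a ran the other way: MPTP+PF4 2 had 7.74 CPM of Drd1, and Control 2 and Control 3 had 4.04 and 4.80 CPM, against 44.5 to 398 CPM in the other exposed libraries and 158 CPM in Control 1. Thus 6 of the 9 libraries labelled midbrain, Control 1 among them, held little dopamine transporter RNA and more striatal RNA than the other 3. The first principal component took 59.1% of the variance and placed Control 2 at 103.5, Control 3 at 69.6 and MPTP+PF4 2 at 22.4, with Control 1 at -21.9 within the range of the other exposed libraries, -60.4 to -4.75. What tissue each library came from, and how far that bears on the group difference, was not tested.

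No gene passed the threshold in the comparison of exposed with saline libraries. By edgeR's quasi-likelihood test with Benjamini-Hochberg adjustment, 0 of 17285 genes had an adjusted p under 0.05, the lowest being 0.100, while 5078 genes had an unadjusted p under 0.05, with 1949 higher (11.3%) and 3129 lower (18.1%) in exposed libraries. DESeq2 called 2140 genes at an adjusted p under 0.05, of which 611 (3.53%) were higher and 1529 (8.85%) lower. Limma voom with sample weights called 10131. Its weights were 0.206 for Control 1, 0.452 for Control 2 and 5.79 for Control 3, against 0.594 to 2.41 in exposed libraries. The saline side of the voom result thus rests mostly on Control 3. The separated genes made up 5.61% of the genes tested. All 3 saline libraries lay below all 6 exposed libraries for 426 genes (2.46%), the higher set, and above them for 543 genes (3.14%), the lower set. For another 342 genes (1.98%) the controls lay outside the exposed range but on both sides of it. The direction of these sets, and their fold changes, follow from the way they were chosen and are given as descriptions. In 353 of the 426 and 394 of the 543 the log2 fold change was smaller than 1 in size, beside 14849 of all 17285 genes tested. The set medians were 0.59 and -0.72, against 0.02 over all genes tested.

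The distance between the groups was small for most separated genes. The gap, measured as log2(CPM + 0.5) between the nearest exposed and the nearest saline library, had a median of 0.0595 in the higher set and 0.0598 in the lower set, and was over 0.2 in 36 and 70 genes. The split between the sets depended on the scale, since 44.0% of the separated genes were higher on TMM-scaled CPM, 53.5% with size factors by relative log expression, 54.6% with library totals alone and 55.2% in the deposited FPKM values. On all 4 scales, 313 of the 426 and 293 of the 543 genes were separated in the same direction.

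Control 1 was the saline library nearest to the exposed ones in 359 (84.3%) of the higher and 481 (88.6%) of the lower genes. Over all genes tested, Control 1 was the saline library nearest to the exposed median in 12945 (74.9%). The exposed library nearest to the controls was most often MPTP+PF4 2, in 143 (33.6%) of the higher and 144 (26.5%) of the lower genes. MPTP+PF4 2 was the lowest exposed library, as counted for the higher set, in 3845 (22.2%) of all genes tested. The share matching the lower set was not counted over all genes. Without Control 1, 8568 genes were separated and edgeR called 6557. Without MPTP+PF4 2, 1842 genes were separated and edgeR called 0. Without Control 2, Control 3 and MPTP+PF4 2 together, Control 1 was compared alone with 5 exposed libraries, which assumes that it varies as they do, and edgeR called 1 gene. That gene was Cxadr, named here after its values were seen, a cell adhesion receptor at 28.5, 29.4 and 27.3 CPM in MPTP libraries, 32.8, 18.9 and 40.9 CPM in MPTP+PF4 libraries, and 1.23, 22.9 and 23.5 CPM in Control libraries. Its groups overlapped over all 9 libraries, and its low level was that of Control 1. For a separated gene, the rule already placed Control 1 outside the exposed range. The sign of its log2 fold change with Control 1 alone was thus largely set in advance, and such values below describe size only.

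**Figure D1:**
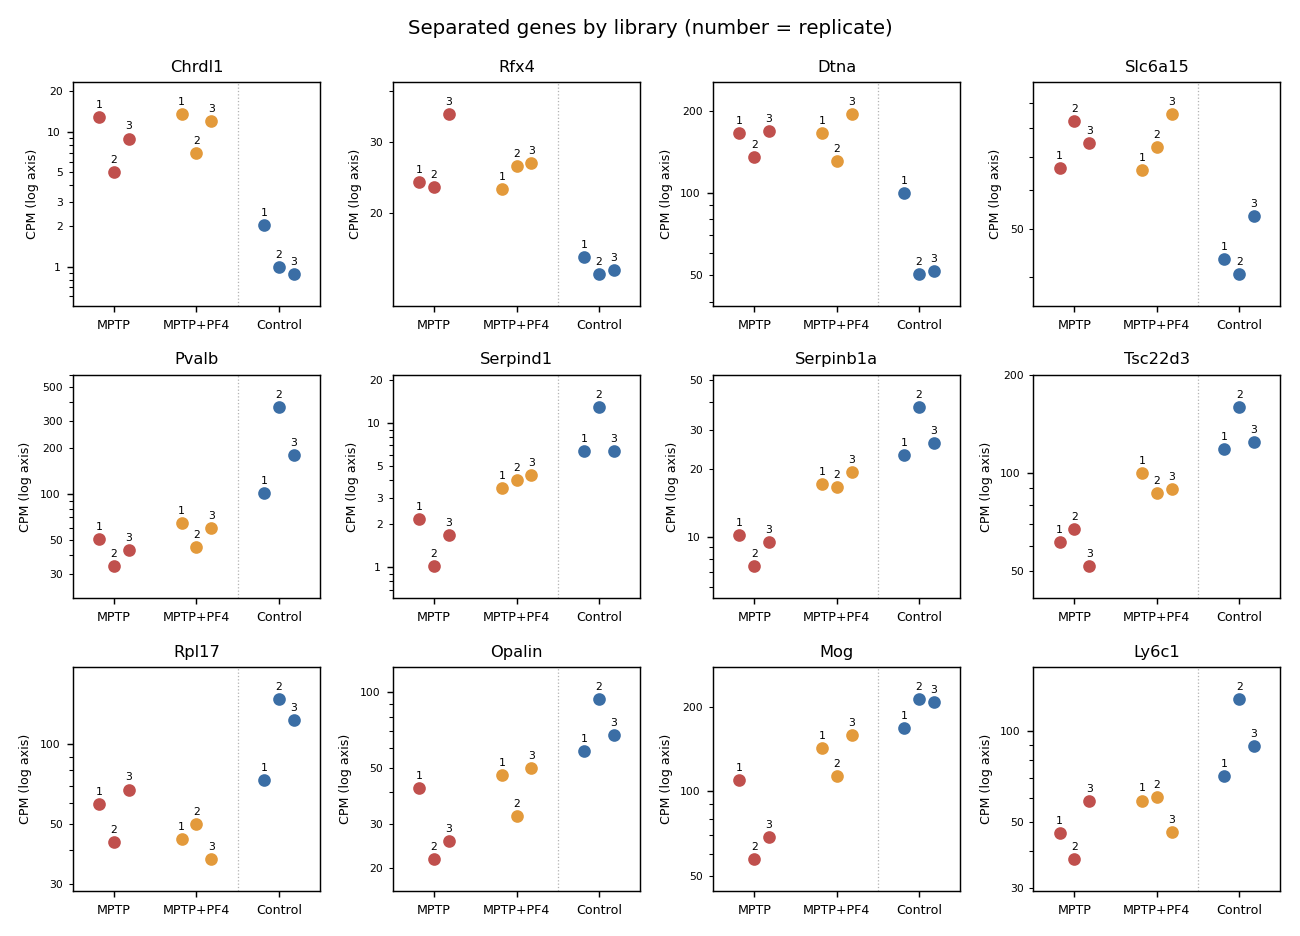
Level of 12 separated genes in each of the 9 libraries, in CPM on a log axis; each point is 1 library, numbered by replicate. The 3 saline points lie below all 6 exposed points in the top row and above them in the other rows, and the distance is largest for Chrdl1.

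Chrdl1 had the widest gap of the separated genes, 1.11 on the log2 scale, and was higher in the exposed libraries. It encodes chordin-like 1, a secreted protein that binds bone morphogenetic proteins (BMPs) and, in mouse cortex, is released by astrocytes and affects the maturation of synapses. It was at 12.8, 5.01 and 8.92 CPM in MPTP libraries, 13.5, 6.94 and 11.9 CPM in MPTP+PF4 libraries, and 2.05, 0.994 and 0.882 CPM in Control libraries. Every exposed library was above every saline one, and the lowest exposed library, MPTP 2, was also well above the highest saline library, Control 1. The mean was 9.86 ± 3.45 CPM (SD, n = 6) in exposed and 1.31 ± 0.642 CPM (SD, n = 3) in saline libraries, a log2 fold change of 2.91 (SE 0.436). It was 2.77 (SE 0.479) for MPTP and 3.04 (SE 0.484) for MPTP+PF4 against the same 3 controls, and 2.35 with Control 1 alone against the 5 exposed libraries low in Slc6a3. The gene lies on chromosome X, 143285674 to 143394262 on the minus strand in the GRCm38 annotation, a build other than the mm9 of the deposited counts, from which no position was converted.

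Of the BMP ligands, antagonists, receptors and targets, 37 genes were tested, Chrdl1 included, and their median log2 fold change was 0.15, against 0.02 over all genes, with 0.0077 without MPTP 1 and 0.02 without Control 3. At an unadjusted p under 0.05, 7 were higher and 3 lower, against 11.3% higher and 18.1% lower among all genes tested, and 0 passed the adjusted threshold. The receptors Bmpr1b and Bmpr2 were also separated, so that 3 of the 37 were in the higher set, beside 2.46% of all genes tested. Bmpr1b, a type I receptor, was at 27.2, 25.3 and 27.8 CPM in MPTP libraries, 24.8, 28.6 and 32.6 CPM in MPTP+PF4 libraries, and 22.8, 20.4 and 22.7 CPM in Control libraries. Bmpr2, the type II receptor, had a lowest, median and highest value of 227, 234 and 349 CPM in exposed libraries and was at 222, 124 and 156 CPM in Control libraries. In both receptors the nearest exposed and saline libraries differed by little, and their log2 fold changes were 0.34 (SE 0.128) and 0.59 (SE 0.215). Id1, a transcriptional target of BMP signalling, was at 14.6, 10.97 and 16.9 CPM in MPTP libraries, 17.8, 14.7 and 13.5 CPM in MPTP+PF4 libraries, and 16.6, 54.1 and 27.2 CPM in Control libraries, so that Control 1 lay within the exposed range. Summed over the list, the level was 1015 to 1504 CPM in exposed libraries and 1093, 796 and 759.9 CPM in Control libraries.

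Rfx4, Slc6a15 and Dtna were separated by gaps of 0.54, 0.31 and 0.38 on the log2 scale. Rfx4, a transcription factor of the RFX family that is needed for dorsal midline development in the mouse brain, was at 23.9, 23.1 and 35.1 CPM in MPTP libraries, 22.9, 26.1 and 26.5 CPM in MPTP+PF4 libraries, and 15.6, 14.1 and 14.5 CPM in Control libraries. Its 3 saline values lay close together, and MPTP 3 stood above the other exposed libraries. Slc6a15, a neuronal transporter of branched-chain amino acids and proline, was at 66.5, 82.5 and 74.7 CPM in MPTP libraries, 65.7, 73.1 and 85.2 CPM in MPTP+PF4 libraries, and 43.4, 40.5 and 53.0 CPM in Control libraries. Its mean was 74.6 ± 7.995 CPM in MPTP and 74.7 ± 9.88 CPM in MPTP+PF4 libraries (SD, n = 3 each). Dtna, which encodes alpha-dystrobrevin of the dystrophin-associated complex, was at 166, 135 and 169 CPM in MPTP libraries, 165, 131 and 194 CPM in MPTP+PF4 libraries, and 100.1, 50.5 and 51.6 CPM in Control libraries. With Control 1 alone against 5 exposed libraries, the log2 fold change was 0.75 for Rfx4, 0.79 for Slc6a15 and 0.73 for Dtna. Over all 9 libraries the values were 0.83, 0.71 and 1.25. The sign with Control 1 alone was largely set by the rule of separation.

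The other genes with wide gaps in the higher set came from several families. Wnk3, a kinase that regulates cation-chloride cotransporters, was at 4.92, 5.94 and 15.5 CPM in MPTP libraries, 15.1, 17.3 and 8.40 CPM in MPTP+PF4 libraries, and 3.78, 1.21 and 3.03 CPM in Control libraries. Uty, a histone demethylase gene of the Y chromosome, had a lowest, median and highest value of 15.2, 18.7 and 29.5 CPM in exposed libraries and was at 11.7, 5.12 and 6.12 CPM in Control libraries. Of the other Y-linked genes tested, Ddx3y, Kdm5d and Eif2s3y had log2 fold changes of 0.42, 0.47 and 0.33 with overlapping groups, so all 9 libraries held Y-linked RNA. Pcdha11 and Pcdha2, clustered protocadherins, and Ugt1a6a, a glucuronosyltransferase, share their 3' exons with neighbouring genes, and their values depend on how shared reads were assigned. The deposited data hold more than 1 entry under the symbol Pcdha11, and the values given are those of a single entry. Pcdha11 was at 4.30 to 9.43 CPM in exposed libraries, at 2.66 CPM in Control 1 and at 0 in Control 2 and Control 3. Ugt1a6a was at 4.32 to 7.76 CPM, 3.14 CPM and 0 in the same order. Pcdha2 was at 0.852 to 6.82 CPM in exposed libraries and 0.589, 0 and 0.524 CPM in Control libraries. Fam205a3, which has near-identical copies, was at 3.98 to 10.5 CPM in exposed libraries and 1.88, 1.24 and 2.56 CPM in Control libraries.

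Some separated genes of the higher set are known from immune cells, at low levels. Itgb2, the beta subunit of the leukocyte integrins and of complement receptor 3 on microglia, was at 7.01, 5.99 and 8.31 CPM in MPTP libraries, 8.05, 8.57 and 7.36 CPM in MPTP+PF4 libraries, and 5.21, 2.1998 and 1.35 CPM in Control libraries. Slc11a1, a divalent metal transporter of phagocyte lysosomes, was at 1.75 to 3.78 CPM in exposed libraries and 1.29, 0.994 and 0.965 CPM in Control libraries. Il1rl2, the receptor for interleukin-36, was at 0.670 to 1.23 CPM and at 0.252, 0.452 and 0.524 CPM in Control libraries, and Tnfrsf13b, a receptor for B-cell activating factor, at 1.60 to 1.95 CPM and 1.21, 0.663 and 1.16 CPM. Itgb2 was the 1 separated gene of 19 complement genes, beside 5.61% of all genes tested. The median log2 fold change of the 19 was -0.17, and the complement genes C1qa, C1qb and C1qc had -0.47, -0.65 and -0.17. Of 17 microglia identity genes 0 were separated, and 3 were higher and 1 lower at an unadjusted p under 0.05, beside 11.3% and 18.1% of all genes tested. The microglia median was 0.11. F3 (tissue factor, the trigger of coagulation), Ptprz1 (a receptor phosphatase of astrocytes and oligodendrocyte precursors) and Clock (a core circadian transcription factor) were separated on 2, 3 and 3 of the 4 scales. Clock was at 75.3 to 112 CPM in exposed libraries and 74.4, 46.4 and 47.5 CPM in Control libraries. Of 17 circadian genes tested, 5 were higher and 0 lower at an unadjusted p under 0.05 (11.3% and 18.1% of all genes). Their median was 0.41, with 0.22 for Control 1 alone against 5 exposed libraries and 0.64 without Control 1. Nr1d1 and Per2 were among those 5, and in both Control 1, at 63.6 and 33.4 CPM, lay within the exposed ranges of 63.2 to 92.5 and 24.1 to 51.1 CPM.

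In the lower set, Pvalb had the widest gap of the named genes. It encodes parvalbumin, a calcium buffer of fast-spiking neurons, and was at 50.3, 33.4 and 42.6 CPM in MPTP libraries, 64.5, 45.02 and 59.7 CPM in MPTP+PF4 libraries, and 101, 373 and 179 CPM in Control libraries. The 6 exposed libraries lay close together, at 49.3 ± 11.5 CPM (SD, n = 6), while the saline libraries spread widely, at 217 ± 140.1 CPM (SD, n = 3). The log2 fold change of -2.14 (SE 0.343) was -1.01 with Control 1 alone against 5 exposed libraries. Control 2 and Control 3, the libraries with most Pvalb RNA, had 574 and 526 CPM of Slc6a3. MPTP+PF4 2, with less Slc6a3 than these, at 102 CPM, was at 45.02 CPM of Pvalb, within the range of the other exposed libraries. How far the Pvalb level goes with the tissue in each library was not tested.

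Both separated serpins were lower in the exposed libraries, and more so without PF4. Serpind1 encodes heparin cofactor II, a thrombin inhibitor that heparan and dermatan sulphate activate. It was at 2.17, 1.01 and 1.67 CPM in MPTP libraries, 3.57, 4.04 and 4.38 CPM in MPTP+PF4 libraries, and 6.45, 12.99 and 6.39 CPM in Control libraries. The 3 groups did not overlap with each other, and the MPTP+PF4 libraries lay between the other groups. How many of all genes tested show this order was not counted, so it cannot be called particular to the genes named with it here. Serpinb1a, an inhibitor of neutrophil proteases, was at 10.3, 7.39 and 9.46 CPM in MPTP libraries, 17.3, 16.7 and 19.5 CPM in MPTP+PF4 libraries, and 23.3, 38.1 and 26.3 CPM in Control libraries, in the same order. Against saline the log2 fold change of Serpind1 was -1.62 (SE 0.446) for the pool, -2.41 (SE 0.396) for MPTP and -1.11 (SE 0.378) for MPTP+PF4. Serpinb1a had -1.12 (SE 0.311), -1.69 (SE 0.228) and -0.71 (SE 0.223). With Control 1 alone against 5 exposed libraries the values were -1.33 and -0.86. Of 16 serpin genes tested, 4 were lower and 0 higher at an unadjusted p under 0.05, where 18.1% of all genes were lower and 11.3% higher. Their median log2 fold change was -0.07, and 2 of the 16 were separated lower, beside 3.14% of all genes tested. The window around the start of Serpind1 is shown because its 3 groups did not overlap. It covers chr16:17331121-17331420 (GRCm38.p6, plus strand), 250 bases before to 50 after the RefSeq start, and capitals mark ACAAAG, a core motif of SOX factors searched on both strands, which 18.7% of 32851 such windows held.
Serpind1: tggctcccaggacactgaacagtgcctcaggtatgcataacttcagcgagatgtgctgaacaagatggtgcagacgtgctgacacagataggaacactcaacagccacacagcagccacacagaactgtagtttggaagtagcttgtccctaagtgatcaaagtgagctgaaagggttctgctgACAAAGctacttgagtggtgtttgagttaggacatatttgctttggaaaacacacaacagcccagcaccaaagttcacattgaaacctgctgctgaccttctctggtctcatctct

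Tsc22d3, which encodes the glucocorticoid-induced leucine zipper protein, was at 61.7, 67.7 and 51.8 CPM in MPTP libraries, 100.1, 87.0 and 89.6 CPM in MPTP+PF4 libraries, and 118, 159.9 and 125 CPM in Control libraries. Its 3 groups too were apart, in the same order as those of the serpins. Sgk1, a kinase that glucocorticoids induce, was separated on 3 of the 4 scales, at 139 to 253 CPM in exposed libraries and 305, 259 and 256 CPM in Control libraries. These 2 were the separated members among 21 glucocorticoid response genes, beside 3.14% of all genes tested separated on the lower side. At an unadjusted p under 0.05, 3 of the 21 were higher and 5 lower, beside 11.3% and 18.1% of all genes, and their median log2 fold change was 0.01. Fkbp5, another target of the glucocorticoid receptor, had 0.27.

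Of the 45 gene lists examined, the mature oligodendrocyte list held the most separated genes. Mature oligodendrocytes form myelin, and Mbp, Mobp, Mog, Mag, Cnp and Opalin, 6 of the 18 oligodendrocyte genes tested, were separated, all lower in exposed libraries. Over all genes tested, 3.14% were separated lower. At an unadjusted p under 0.05, 11 of the 18 were lower and 0 higher (18.1% of all genes tested were lower). Of the 18, 0 passed the adjusted threshold, DESeq2 called 8 lower (8.85% of all genes tested), and the median log2 fold change was -0.67. The windows around the starts of Mog, Opalin and Cnp (RefSeq, GRCm38.p6) are shown because these genes were lower together in the exposed libraries. They cover chr17:37023349-37023648 (minus strand), chr19:41077064-41077363 (minus strand) and chr11:100574689-100574988 (plus strand). Capitals mark ACAAAG, as above, and GGGCGG (the GC box, in 35.7% of all windows), both searched on both strands. TATAAA, the TATA box (13.6% of all windows), was found in none of the 3.
Mog: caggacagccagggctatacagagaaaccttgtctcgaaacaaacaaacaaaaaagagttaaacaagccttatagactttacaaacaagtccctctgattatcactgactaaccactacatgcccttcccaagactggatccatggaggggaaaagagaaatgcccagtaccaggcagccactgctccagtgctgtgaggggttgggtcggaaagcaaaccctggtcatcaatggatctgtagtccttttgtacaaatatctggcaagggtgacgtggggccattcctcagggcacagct
Opalin: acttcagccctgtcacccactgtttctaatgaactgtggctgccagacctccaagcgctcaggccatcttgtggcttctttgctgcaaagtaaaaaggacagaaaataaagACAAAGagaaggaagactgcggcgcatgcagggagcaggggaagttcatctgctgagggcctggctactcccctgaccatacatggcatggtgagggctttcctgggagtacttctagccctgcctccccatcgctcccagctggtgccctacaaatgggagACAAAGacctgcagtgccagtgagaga
Cnp: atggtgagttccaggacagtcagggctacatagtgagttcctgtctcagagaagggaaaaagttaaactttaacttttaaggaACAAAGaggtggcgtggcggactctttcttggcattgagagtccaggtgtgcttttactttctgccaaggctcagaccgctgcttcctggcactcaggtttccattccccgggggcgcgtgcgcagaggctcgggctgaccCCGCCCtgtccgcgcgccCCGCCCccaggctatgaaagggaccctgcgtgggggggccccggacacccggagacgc

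The Opalin window held 2 SOX core motifs, the Cnp window 1 with 2 GC boxes, and the Mog window none of these letters. The windows of Pvalb and Rfx4, looked up as well but not shown, held none of these motifs and no TATA box. Mog, a glycoprotein of the outer myelin surface, was at 109.9, 57.6 and 68.8 CPM in MPTP libraries, 143, 114 and 158 CPM in MPTP+PF4 libraries, and 168, 213 and 207 CPM in Control libraries. Opalin, an oligodendrocyte membrane protein, was at 41.6, 21.7 and 25.6 CPM in MPTP libraries, 47.0, 32.1 and 49.97 CPM in MPTP+PF4 libraries, and 58.1, 93.7 and 67.6 CPM in Control libraries. Cnp, a myelin phosphodiesterase, was at 613, 340.1 and 427 CPM in MPTP libraries, 584, 548 and 587 CPM in MPTP+PF4 libraries, and 704, 1265 and 889.8 CPM in Control libraries. In each, MPTP 2 was the lowest library, and Control 1 was the saline library nearest to the exposed range. Mag, an adhesion protein on the inner myelin membrane, was at 214 to 371 CPM in exposed libraries and 409.6, 549.8 and 436 CPM in Control libraries. Mbp and Mobp, components of compact myelin, were separated on 1 and 2 of the 4 scales by narrow gaps: MPTP 1 had 6730.3 CPM of Mbp, against 6746 CPM in Control 1. Summed over the list, oligodendrocyte transcripts took 8423 to 17658 CPM in exposed libraries and 17450, 28739 and 24992 CPM in Control libraries, so the sums overlapped. With Control 1 alone against 5 exposed libraries the list median was -0.42, and the log2 fold changes of Mog, Opalin, Cnp and Mag were -0.65, -0.64, -0.47 and -0.47. White matter content differs between brain regions, and its part in these values was not tested.

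Several vessel genes were also separated on the lower side. Of 16 endothelial genes tested, Ly6c1, Slc2a1, Tie1 and Tek were separated, beside 3.14% of all genes tested on the lower side. At an unadjusted p under 0.05, 8 of the 16 were lower and 0 higher (18.1% and 11.3% of all genes tested). Their median log2 fold change was -0.38. Ly6c1, a surface antigen of brain endothelium, was at 45.8, 37.6 and 58.7 CPM in MPTP libraries, 58.8, 60.6 and 46.2 CPM in MPTP+PF4 libraries, and 70.8, 128 and 89.7 CPM in Control libraries. Slc2a1, the glucose transporter of the blood-brain barrier, was at 90.4 to 130.2 CPM in exposed libraries and 135, 167 and 139.8 CPM in Control libraries. The angiopoietin receptor Tek and its relative Tie1 had narrow gaps and were separated on 2 of the 4 scales. Their sum with the other endothelial genes was 475 to 632 CPM in exposed libraries and 664, 1044 and 735 CPM in Control libraries, without overlap, but the median over the list was -0.18 with Control 1 alone against 5 exposed libraries and -0.21 without Control 2. Among 12 pericyte and smooth muscle genes, 7 were lower and 0 higher at an unadjusted p under 0.05 (18.1% and 11.3% of all genes), with a median of -0.68. That median was -0.15 with Control 1 alone against 5 exposed libraries and -0.32 without Control 2. Of these only Pdgfrb, the platelet-derived growth factor receptor of pericytes, was separated, at 19.6 to 25.4 CPM in exposed libraries and 25.6, 37.1 and 32.5 CPM in Control libraries. Lum, a proteoglycan of connective tissue, was the 1 separated gene of 13 meningeal fibroblast genes, at 1.16 to 2.87 CPM in exposed libraries and 2.97, 7.11 and 3.56 CPM in Control libraries. Beside this 1 of 13, and Pdgfrb as 1 of 12, 3.14% of all genes tested were separated lower. The meningeal list had a median of -1.13, with -0.29 for Control 1 alone and -0.02 without Control 2. The 5 erythrocyte genes tested had a median of -4.12 with 0 separated, and it was -0.35 with Control 1 alone and -1.65 without Control 2. The erythrocyte sum was 49.3 to 403 CPM in exposed libraries and 212, 6578 and 793 CPM in Control libraries, so that blood RNA was highest in Control 2.

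**Figure D2:**
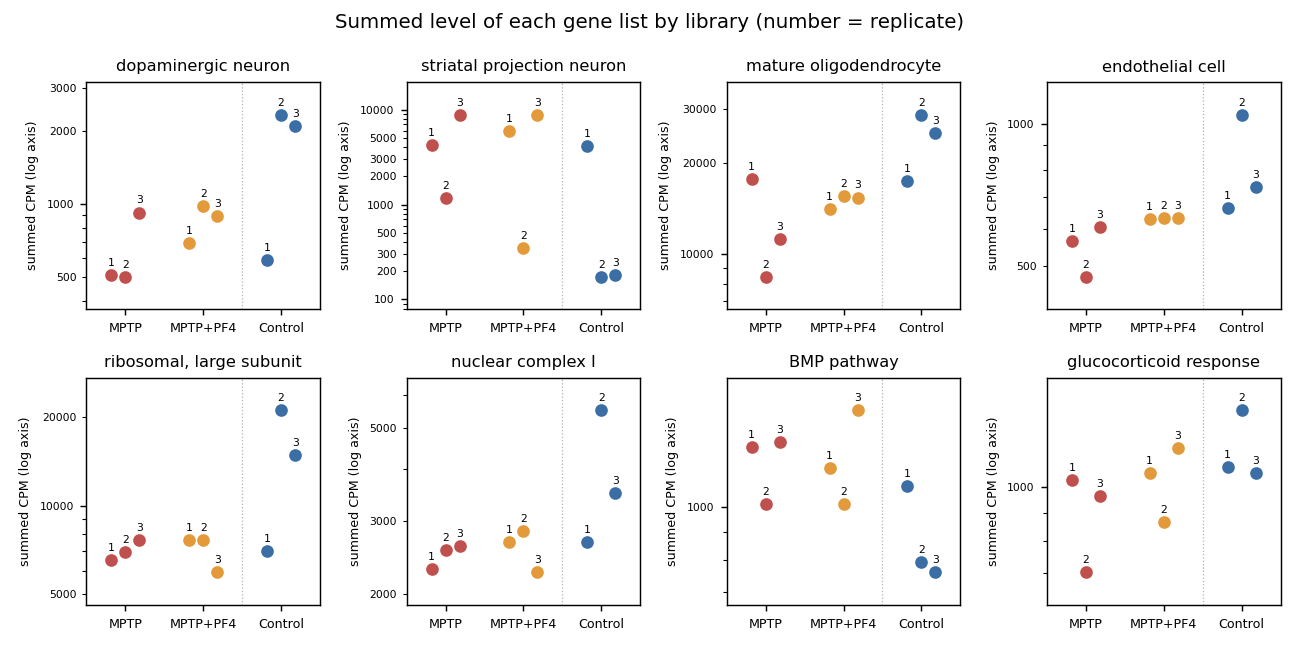
Summed CPM of the members of 8 gene lists in each library, on a log axis; each point is 1 library, numbered by replicate. The endothelial sums of the 3 saline libraries lie above all exposed sums, while for the ribosomal and complex I genes Control 1 lies among the exposed libraries and Control 2 and Control 3 lie above them.

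Genes for cytosolic ribosomal proteins were mostly lower in the exposed libraries than in Control 2 and Control 3, but not than in Control 1. Of 47 large-subunit genes 46 were lower and 0 higher at an unadjusted p under 0.05, and of 32 small-subunit genes 32 were lower (18.1% of all genes tested were lower and 11.3% higher), with median log2 fold changes of -1.11 and -0.96; 0 of either passed the adjusted threshold. Summed, the large-subunit genes took 5930 to 7665 CPM in exposed libraries and 7024, 21062 and 14875 CPM in Control libraries. Control 1 thus lay inside the exposed range, and with Control 1 alone against 5 exposed libraries the medians were 0.01 and 0.05. Separation from Control 1 as well was limited to Rpl17, Rps15, Rps29 and Rpsa, 4 of the 79 genes, while 6 more had controls on both sides of the exposed range. Over all genes tested, 3.14% were separated lower and 1.98% had controls on both sides. Rpl17, a large-subunit protein, was at 59.5, 42.9 and 67.7 CPM in MPTP libraries, 44.2, 50.2 and 37.1 CPM in MPTP+PF4 libraries, and 73.5, 148 and 124 CPM in Control libraries. Its log2 fold change was -1.19 (SE 0.238), and -0.55 without the 3 libraries high in Slc6a3. Rps15, of the small subunit, was at 178 to 269 CPM in exposed libraries and 284, 1092 and 752 CPM in Control libraries, and Rpsa was separated on 1 of the 4 scales. Ribosomal protein genes have many processed pseudogenes, and how reads shared with them were assigned is not stated by the labels.

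Nuclear genes of the respiratory chain, of which MPP+ inhibits complex I, were lower in most cases too, again with little difference from Control 1 in the list medians. Of 36 complex I genes, 25 were lower and 1 higher at an unadjusted p under 0.05 (18.1% and 11.3% of all genes), and the median was -0.74. Ndufa12, Ndufa10, Ndufa13 and Ndufs8 were separated, beside 3.14% of all genes tested on the lower side. Ndufa13, a subunit needed for complex I assembly, was at 56.9, 53.7 and 63.5 CPM in MPTP libraries, 62.5, 61.5 and 43.0 CPM in MPTP+PF4 libraries, and 65.1, 185 and 109 CPM in Control libraries. The other 3 were separated on 1 or 2 of the 4 scales. Among 33 genes of complexes III to V, 22 were lower and 1 higher by the same measure and beside the same shares of all genes, the median was -0.71, and Uqcrq, of complex III, and Atp5j2, of the ATP synthase, were separated on 3 of the 4 scales. Uqcrq was at 33.9 to 54.9 CPM in exposed libraries and 55.7, 218 and 134 CPM in Control libraries. With Control 1 alone against 5 exposed libraries the list medians were -0.08 and -0.09. The 13 mitochondrially encoded genes tested had a median near 0 (-0.0024), with 0 separated.

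**Figure D3:**
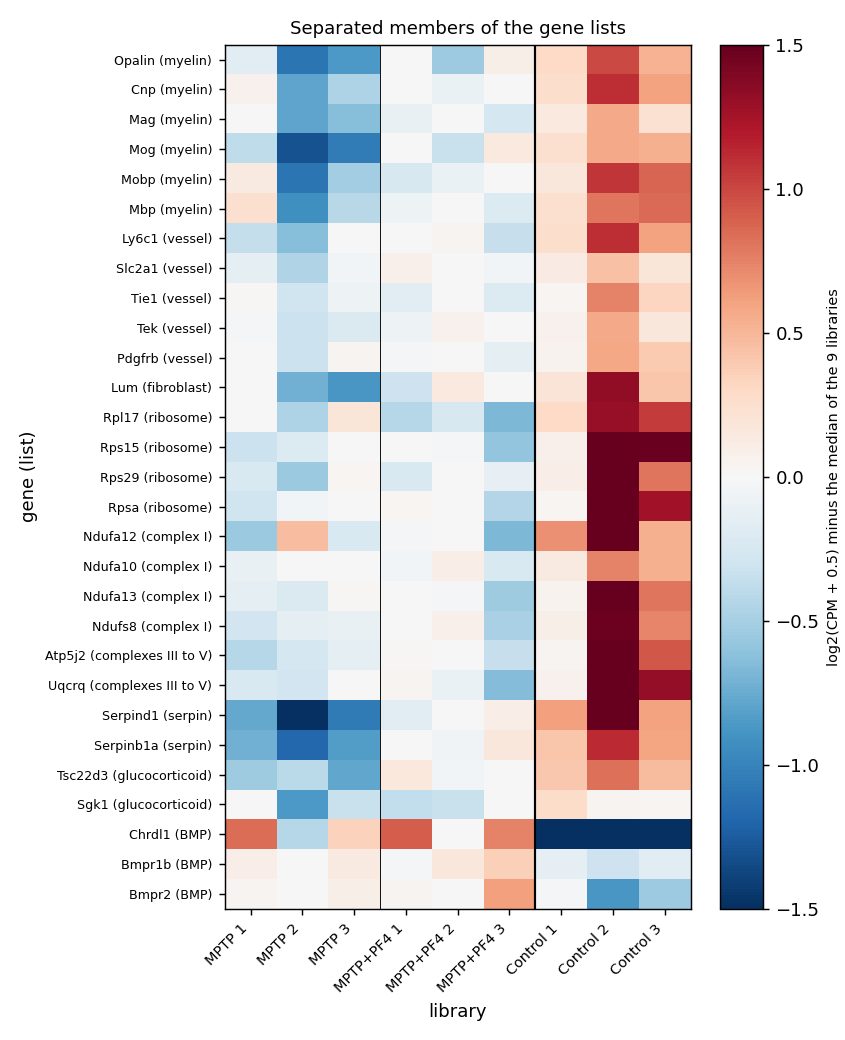
The 29 separated members of the myelin, vessel, fibroblast, ribosome, respiratory chain, serpin, glucocorticoid and BMP lists (down the page) in the 9 libraries (across), exposed libraries left of the thick line. Colour is log2(CPM + 0.5) minus the gene's median over the 9 libraries, cut at 1.5 either way, which 12 cells exceed; saline libraries are redder than exposed ones in all but the 3 BMP genes.

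Most of the remaining named genes of the lower set were in none of the gene lists. Rab37, a small GTPase of secretory vesicles, was at 8.19, 3.45 and 3.68 CPM in MPTP libraries, 6.42, 9.60 and 7.83 CPM in MPTP+PF4 libraries, and 15.4, 13.4 and 15.2 CPM in Control libraries. Its saline libraries were close to each other, and its log2 fold change was -1.17 over all libraries. Itgb4, the integrin beta 4 subunit, was at 9.39 to 17.9 CPM in exposed libraries and 24.2, 34.1 and 27.7 CPM in Control libraries. Npr1, the receptor for atrial natriuretic peptide, was at 1.52 to 2.58 CPM in exposed libraries and 3.73, 5.70 and 3.45 CPM in Control libraries. Ggt5, a gamma-glutamyl transferase that cleaves leukotriene C4, was at 1.17 to 2.31 CPM in exposed libraries and 3.64, 5.60 and 3.28 CPM in Control libraries. With Control 1 alone against 5 exposed libraries, the log2 fold changes of Rab37, Itgb4, Npr1 and Ggt5 were -1.38, -0.71, -0.82 and -0.99. Ppp1r14a, an inhibitor of myosin phosphatase, was at 4.35 to 9.44 CPM in exposed libraries and 11.9, 52.4 and 22.2 CPM in Control libraries, and its log2 fold change of -1.92 was -0.70 with Control 1 alone. Ttyh2 (a chloride channel family member), Tspan9 (a tetraspanin), Rufy1 (an endosomal protein), Nmral1, Rangrf, Nfkbil1, Smtnl2 and Lrrc56 were separated on all 4 scales, with log2 fold changes between -1.501 and -0.56. Entpd4b was the 1 separated gene of 7 tested in a list linked to C57BL/6 substrain differences (median -0.16), beside 5.61% of all genes tested. It was at 59.4 to 71.8 CPM in exposed libraries and 78.3, 97.8 and 96.7 CPM in Control libraries. It has a near-identical neighbour, Entpd4, whose groups overlapped, at 44.8 to 57.3 CPM and 45.2, 64.7 and 83.7 CPM.

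Gpc1, a heparan sulphate proteoglycan, was the 1 separated gene of 12 PF4 receptor and heparan sulphate genes, beside 5.61% of all genes tested. It was at 44.7 to 52.2 CPM in exposed libraries and 53.5, 66.5 and 68.2 CPM in Control libraries. Atf4, a transcription factor of the integrated stress response, and Psmb9, an immunoproteasome subunit, were separated on 2 of the 4 scales. Atf4 was the 1 separated gene of 16 unfolded protein and integrated stress response genes tested, and Psmb9 of 14 MHC class I genes. Over all genes tested, 3.14% were separated lower. The astrocyte, reactive astrocyte, disease-associated microglia, interferon, cholesterol synthesis, antioxidant and familial Parkinson's disease lists had 0 separated members. Each of these lists had only 12 to 21 genes tested, and 5.61% of all genes tested were separated. The 22 dopaminergic genes likewise had 0 separated, with a median of -1.70, as did the 12 striatal genes, with a median of 1.60; with Control 1 alone these medians were -0.06 and 0.52. Th, tyrosine hydroxylase, was at 5.58, 18.1 and 8.31 CPM in MPTP libraries, 4.95, 51.7 and 7.10 CPM in MPTP+PF4 libraries, and 7.49, 195 and 176 CPM in Control libraries. Its exact two-sided permutation p was 0.0952 over 84 arrangements, where the smallest possible is 0.0238, and Slc6a3 and Ddc gave 0.0952 and Slc18a2 0.143. Pf4 itself, at 0.154 to 0.831 CPM in exposed libraries and 0.280, 2.53 and 0.441 CPM in Control libraries, gave 0.238.

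Each exposed group was also set against the same 3 controls, which the comparisons share. At an unadjusted p under 0.05, 920 genes (5.32%) were higher and 2234 (12.9%) lower for MPTP, and 1080 (6.25%) higher and 2091 (12.1%) lower for MPTP+PF4, with 0 past the adjusted threshold in edgeR in either. Rufy1 had log2 fold changes of -0.69 for MPTP and -0.72 for MPTP+PF4, Tspan9 -1.17 and -1.08, Rangrf -1.34 and -1.37, Dtna 1.22 and 1.28, and Slc11a1 1.33 and 1.41. The difference between the exposed groups themselves was tested as MPTP+PF4 against MPTP. By edgeR 0 of 17285 genes passed, with 112 higher (0.648%) and 235 lower (1.36%) at an unadjusted p under 0.05. Of the higher set 3 genes (0.704%) and of the lower set 14 genes (2.58%) had such a p, against 2.01% of all genes tested. All 14 were higher with PF4, and all 3 were lower with PF4, so that in each of the 17 the MPTP+PF4 mean lay between the MPTP and the saline mean. A position between them is limited on the saline side by the choice of separated genes, and no adjusted p was under 0.05, so these values describe the 17 genes only.

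Among the 14, Serpinb1a had the smallest p, with a log2 fold change of 0.98 (SE 0.225) for MPTP+PF4 over MPTP, an unadjusted p of 0.00187 and an adjusted p of 1.00 in edgeR. Serpind1 had 1.30 (SE 0.385), Mog 0.81 (SE 0.255) and Tsc22d3 0.61 (SE 0.173). Pmp22, a membrane protein of peripheral myelin that other cells also make, was at 45.7, 47.8 and 44.1 CPM in MPTP+PF4 libraries, 33.9, 27.3 and 31.3 CPM in MPTP libraries, and 49.0, 63.5 and 57.9 CPM in Control libraries. Cyp27a1, the sterol 27-hydroxylase, was at 8.15, 7.71 and 7.00 CPM in MPTP+PF4 libraries, 6.62, 3.37 and 4.17 CPM in MPTP libraries, and 10.1, 16.5 and 14.6 CPM in Control libraries. The order MPTP, MPTP+PF4, Control held in every library of both genes, and its share among all genes tested was not counted. Klf4, a zinc-finger transcription factor, Sgk2, a kinase related to Sgk1, Smco3, Tmem125, Fam57a, Meox1 and 2 loci without a known gene made up the rest. The 3 genes lower with PF4 were Gem, a GTPase that modulates calcium channels, Rdh10, a retinol dehydrogenase, and Marc1, a mitochondrial reductase. Gem was at 2.06, 2.09 and 2.08 CPM in MPTP+PF4 libraries, 4.59, 3.26 and 3.32 CPM in MPTP libraries, and 1.82, 1.18 and 1.08 CPM in Control libraries. For Chrdl1, Rfx4, Slc6a15 and Pvalb the MPTP+PF4 over MPTP values were 0.27 (SE 0.442), -0.12 (SE 0.191), 0.00 (SE 0.170) and 0.42 (SE 0.415), each about as large as its SE or smaller.

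**Figure D4:**
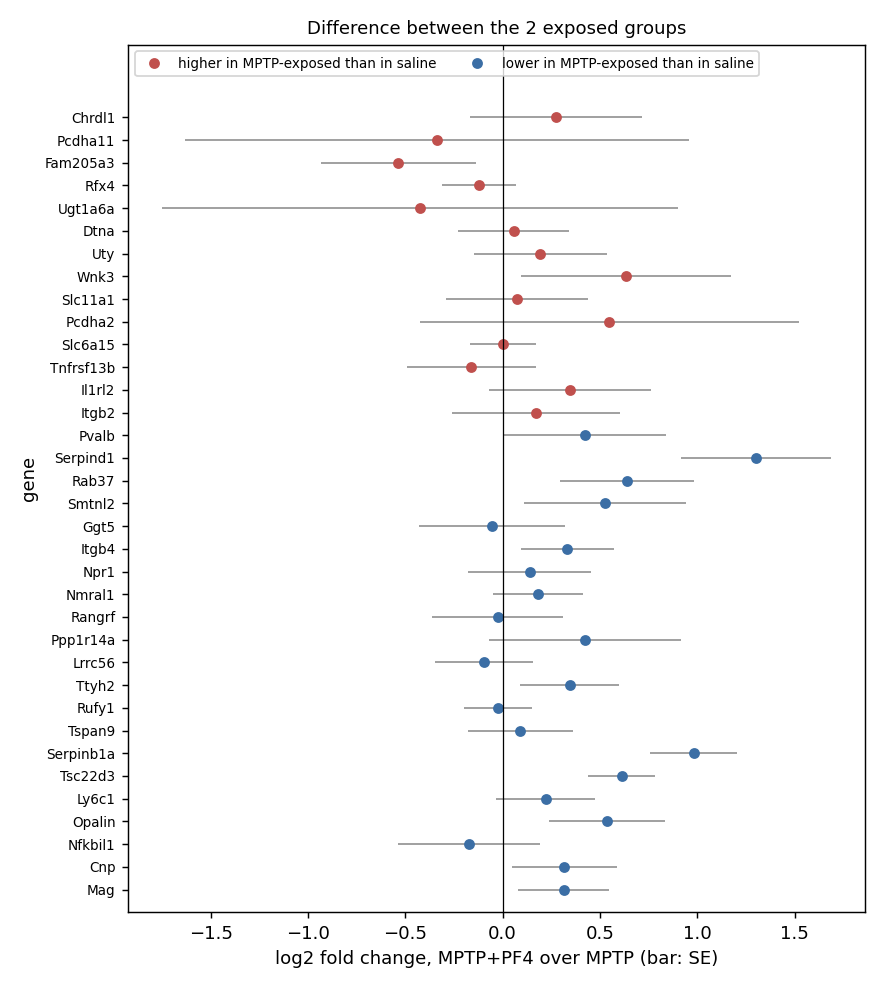
Log2 fold change of MPTP+PF4 over MPTP, with its SE as a bar, for 35 named separated genes, 14 higher (red) and 21 lower (blue) in exposed than in saline libraries. Of the points 25 lie above 0 and 22 within 1 SE of it; Serpind1 and Serpinb1a lie farthest above 0 among the blue points.

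The separated genes differed from the rest in base composition and transcript length, which the rule did not use. Over the longest annotated transcript, known for 91.1% of the higher set, 91.5% of the lower set and 89.0% of all genes tested, the median GC content was 44.9% in the higher set, 54.6% in the lower set and 49.8% in all genes. The median length was 4249, 2640 and 3395 bases in that order. Of the quartile of genes with the least GC, 194 (5.04%) were in the higher and 20 (0.520%) in the lower set, and of the quartile with the most GC, 13 (0.338%) and 243 (6.32%). The longest quartile gave 160 higher and 48 lower genes, and the shortest 41 and 195. The libraries themselves differed in the same property. The mean log2 CPM of the quartile with the most GC minus that with the least was -1.16 to -0.637 in exposed libraries, and -0.643, 0.193 and -0.0124 in Control libraries, so that Control 1 again lay within the exposed range. For length, the longest minus the shortest quartile gave 1.44 to 1.91 in exposed libraries and 1.56, 0.611 and 1.05 in Control libraries. What set these trends was not tested. In the windows around their starts the sets did not part in this way. The median GC content was 62.7% over 353 windows of 301 genes of the higher set. It was 59.7% over 506 windows of 394 genes of the lower set. Over all 32851 windows it was 52.7%, but these cover 27025 genes and were not limited to the genes tested. The X chromosome held 23 (5.40%) of the higher set, 9 (1.66%) of the lower set and 3.14% of all genes tested.

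**Figure D5:**
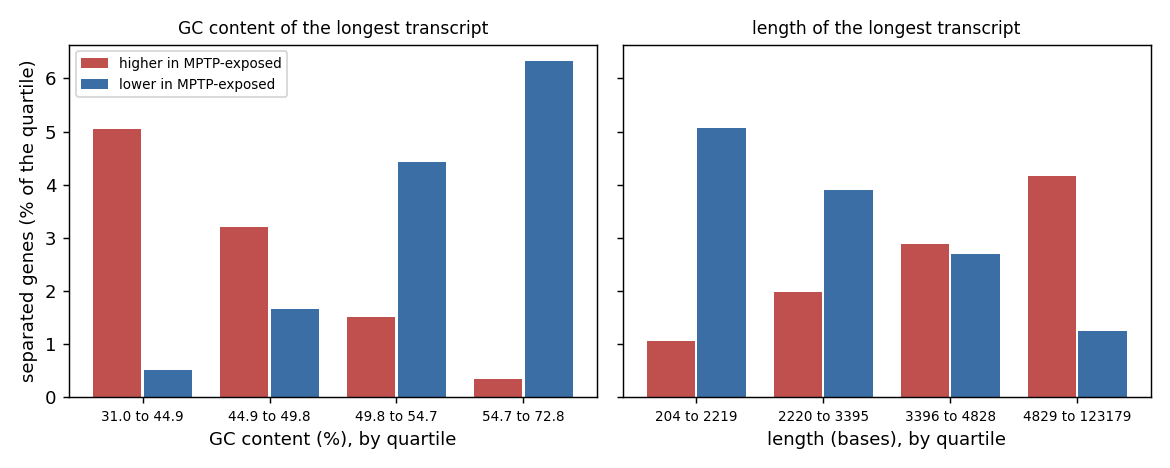
Share of the genes in each quartile of transcript GC content (left) and transcript length (right) that were separated, higher (red) or lower (blue) in MPTP-exposed than in saline libraries. Higher genes run from 5.04% in the quartile with the least GC to 0.338% in that with the most, and lower genes from 0.520% to 6.32%.

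At the edge of the rule, Tefm and Pus3 were separated by the narrowest margins, and Cox5b and Dhx29 missed separation by the narrowest. Tefm, a mitochondrial transcription elongation factor, was at 6.48 CPM in both its lowest exposed library and Control 1, apart only in further decimals. Pus3, a pseudouridine synthase, was at 9.78 CPM in both. Cox5b, a subunit of cytochrome c oxidase, was at 111 CPM in its highest exposed library and in Control 1, and Dhx29, a helicase of translation initiation, at 25.8 CPM in its lowest exposed library and in Control 1. In the authors' deposited table, 30 of the 426 higher genes were called higher and 127 of the 543 lower genes lower for MPTP against saline. For MPTP+PF4 against saline the authors' deposited table called 31 and 93 of them. The authors' calls rest on the same libraries as the rule. The share they called among all genes tested was not counted, so these counts cannot show an excess. Chrdl1, Serpind1, Pvalb and Rpl17 were called in the same direction in both comparisons of the authors' deposited table, and Mog, Serpinb1a and Tsc22d3 only for MPTP.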

How the data were processed

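The authors deposited 1 table with read counts and FPKM values per gene for 9 libraries, per the file headers. The submitters' processing notes name the mouse build mm9, while the aligner, counter and strand setting are not given in the sources used here. DESeq2 calls by the authors used a p-value under 0.05 and a fold of at least 2, per the file headers, which do not state whether that p-value was adjusted. Of 29001 lines, 10 were left out, which gave 28991 genes, 6955 of them loci without a known gene. No column of per-sample values went unused (0).

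The deposited counts were tested with edgeR 4.0.16 (TMM, filterByExpr, quasi-likelihood, R 4.3.3) over all 17285 genes passing the filter, 6 exposed against 3 saline libraries and between the groups, with Benjamini-Hochberg adjustment at 0.05. DESeq2 1.42.0 and limma 3.58.1 voom were alternatives. The deposited FPKM values served as 1 of 4 scales for separation. Exact permutation tests and figures used Python 3.11.15 and scipy 1.17.1. The biological coefficient of variation was 0.386, the totals of 32216850 to 36039211 counts per library limit precision less than that spread, and replicates differed by more than counting noise. The same code was tested on simulated counts with known changes. Recovery of the changes was required only at a dispersion set below that of the data. The check therefore does not show how many changes edgeR misses here.

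Named genes were Slc6a3, Th, Slc18a2, Ddc, Pf4, Chrdl1, Rpl17 and Serpind1. To these were added, per direction, the 12 separated genes with the largest gap and the 5 with the smallest edgeR p (known symbol, mean of at least 1 CPM). Up to 4 separated members of each of 45 gene lists, 4 dopaminergic and 4 striatal genes, and the genes nearest to the limit of the rule completed them, 74 in all. Genes named beside these were chosen after their values were seen. The members and the gene lists were chosen with earlier results of these data known. Transcript lengths and GC content came from the GENCODE annotation of GRCm38, and windows around gene starts from RefSeq (GRCm38.p6), where 6 of 7 genes looked up had an entry. Coordinates were not converted between builds.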

Additional observations from a re-analysis of the deposited data

Results flagged for a closer look

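Some exposed libraries stood far from the other 5 for a named gene, by a gap over 0.625 of the range of the 6 exposed libraries. Chance marks about 1 in 20 groups in this way. MPTP 3 had the highest Rfx4, at 35.1 CPM. MPTP+PF4 3 had the highest Uty, at 29.5 CPM, the highest Bmpr2, at 349 CPM, and the lowest Lrrc56, at 1.84 CPM. MPTP+PF4 2 had the highest F3, at 78.0 CPM, and the highest Pf4, at 0.831 CPM. The same library had the highest values of the dopaminergic genes Slc6a3, at 102 CPM, Th, at 51.7 CPM, Ddc, at 67.3 CPM, and Slc18a2, at 76.6 CPM.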

How the results depend on the processing

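Against 0 genes called by edgeR, DESeq2 called 2140, voom 10131, edgeR without Control 1 and MPTP+PF4 2 called 7038, and edgeR without Control 2, Control 3 and MPTP+PF4 2 called 1. Leaving out 1 library at a time gave 0 to 6557 calls, the highest without Control 1. The number of separated genes, 969, was 1112 to 8568 when 1 library was left out, 3351 without Control 2, Control 3 and MPTP+PF4 2, and 9564 without Control 1 and MPTP+PF4 2, where fewer libraries make separation easier. It was 980 with relative log expression factors, 916 with library totals, 915 on FPKM, 1074 with no filter and 869 with a minimum of 1 CPM. Without Control 2, Control 3 and MPTP+PF4 2, Th, Ddc and Slc18a2 had log2 fold changes of 0.24, 0.0053 and 0.35, opposite in sign to those over all libraries; the cause was not tested. Of the 74 named genes, 51 passed the threshold with DESeq2, 72 with voom, 62 without Control 1 and 63 without Control 1 and MPTP+PF4 2. Over all 17285 genes tested, the same settings called 2140, 10131, 6557 and 7038. Most of the 74 were chosen from these data for a wide gap, a small p or separation. High counts among them therefore follow in part from that choice. Same-numbered libraries had correlations of -0.327 to 0.579 in their deviations from the group means, and differently numbered ones -0.609 to 0.544. These ranges do not settle whether the numbers pair the libraries, and the main test used no pairing. With a replicate block, 0 genes were called, 5965 had an unadjusted p under 0.05 and the lowest adjusted p was 0.0826; the block changed no call.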
